A study of Mus musculus with 12 samples.

Results

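The genes described here encode the nuclear subunits of the oxidative phosphorylation machinery, the 4 respiratory complexes (I to IV) and the ATP synthase (complex V). They were taken by symbol, as Nduf genes with a letter and number, the Sdh genes a to d, and genes beginning Uqcr, Cox4 to Cox8 or Atp5, with at least 600 counts summed over the 12 libraries and without pseudogene symbols. The rule left 77 of the 55291 symbols in the table: 36 for complex I, 4 for complex II, 8 for complex III, 12 for complex IV and 17 for complex V. Of 101 symbols that matched by name, 13 were pseudogenes and 11 had too few counts. The smallest gene kept, Ndufb2, had 1568 counts and the largest one left out, Ndufa4l2, had 196. All 77 passed the filter on low counts in each fit, 75 matched a protein-coding gene of GENCODE M21, and they lie on 19 chromosomes. Many of these genes have processed pseudogenes, and how reads that match both were counted is not given in the sources used here.

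RNA was sequenced from MC3T3-E1, 1 wild-type mouse preosteoblast line that forms bone matrix in culture once differentiation is induced. Cells were induced 2 days after confluence, called day 0, and libraries were made at days 0, 14 and 21 from an untreated control arm and from an arm given interferon beta (IFN, 50 mg/L) from induction on, all in medium with 10% serum. There were 2 libraries for each arm and day. It is not stated if IFN had already been added to its day 0 libraries, nor if replicates were separate cultures, so the p-values measure the spread between these libraries, which may be technical.

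Electrons from NADH enter the respiratory chain at complex I and those from succinate at complex II. Complex III passes them through cytochrome c to complex IV, which reduces oxygen, and the proton gradient built by complexes I, III and IV drives the rotary ATP synthase. Most subunits are nuclear genes, while a small catalytic set is encoded in mitochondrial DNA, and several nuclear subunits have tissue-specific isoforms. Bone-forming cells are known to use glycolysis heavily even where oxygen is available.

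Library totals ran from 29772425 to 38908453 counts, and the 77 genes took 0.44% to 0.649% of them. The 13 subunits of mitochondrial DNA were listed at 0 in every library, as were all 37 mitochondrial symbols, so only the nuclear side was measured. The interferon check list was higher with IFN in 10 of 10 genes at day 14 and again at day 21 (edgeR adjusted p under 0.05), and the 12 osteoblast markers summed to between 10828 and 31222 CPM (counts scaled to a common library total by TMM) in each library. Replicates of the control arm lay much farther apart than those of the IFN arm: the edgeR biological coefficient of variation was 0.38 in the control arm and 0.0635 in the IFN arm. Control day 21 replicate 2 stood apart, with Hspa5, an endoplasmic reticulum chaperone, at 25678 CPM. It was the lowest of the 12 libraries for 33 of the 77 genes. Control day 14 replicate 1 stood apart in glycolysis and hypoxia genes, whose 30 members summed to 29671 CPM there and to between 8201 and 14528 CPM elsewhere. Control day 0 replicate 1 was the lowest library for 15 of the 77 genes.

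For 61 of the 77 genes the highest library was less than 2-fold above the lowest, and the median ratio was 1.57. The share of all genes within that limit is not given. Between replicates the median log2 SD of the subunits was 0.168 at control day 14, against 0.130 for all genes tested. At IFN day 21 it was 0.0898 against 0.0682, and in the other groups it was slightly below that of all genes. Levels between genes are compared only as RPKM, counts scaled by library total and by the length of annotated exon, where all exons of a gene are joined. This length can exceed that of any 1 transcript of the gene, which lowers its RPKM. Cox8a, a small subunit of complex IV, had a median of 277 RPKM, Atp5b, the catalytic beta subunit of ATP synthase, 258 RPKM, and Cox6a1 215 RPKM. Ndufs1, the largest core subunit of complex I, had a median of 4.57 RPKM over 8086 joined exon bases, and Ndufb2 had 0.642 RPKM over 5628. In CPM the gene with the widest range was Cox6a2, with a ratio of 6.54, followed by Atp5e at 3.51 and Ndufv3 at 3.15.

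**Figure D1:**
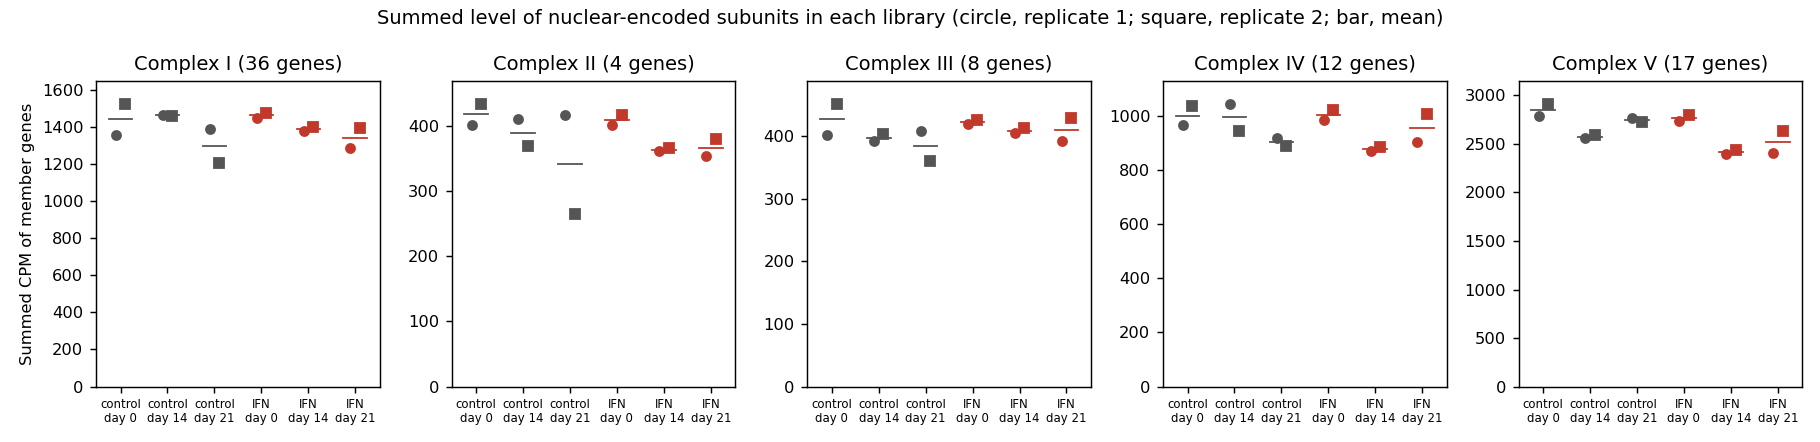
Summed CPM of the nuclear subunits of each complex in each library, from 0, with 36, 4, 8, 12 and 17 genes for complexes I to V (circle, replicate 1, square, replicate 2, bar, mean of both). Highest and lowest library differ by 1.2-fold for complex IV and by 1.64-fold for complex II, whose lowest point is control day 21 replicate 2.

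The summed level of each complex moved little. Complex II, the succinate dehydrogenase that also serves the citric acid cycle, had the widest range, from 265 CPM in control day 21 replicate 2 to 434 CPM in control day 0 replicate 2. Complex IV ranged only from 872 to 1045 CPM. At day 14 the IFN libraries lay below the control libraries for complex IV, at 872 and 884 CPM against 1045 and 945 CPM, a difference of -0.18 on the log2 scale. Complex V was likewise lower, at 2393 and 2440 CPM against 2561 and 2590 CPM, or -0.09. Atp5b and Atp5a1 made up 1003 and 443 CPM of its mean of 2417 CPM with IFN, so this sum mostly follows these genes. The differences for complexes I and II were -0.07 and -0.10, and complex III was 0.04 higher with IFN. Groups did not overlap in these sums at day 14. For complex II the nearest libraries were 367 CPM with IFN and 369 CPM in control. Its difference was smaller than its spread of 0.111 between replicates. With 2 libraries a group, sums that do not differ can also separate in this way, and the share of all genes that did is not given. The 1045 CPM of complex IV came from control day 14 replicate 1, the library that stood apart in glycolysis and hypoxia genes. Cox7a2l had 6050 counts in that library, against 3632 in control day 14 replicate 2. With scaling by library size alone the day 14 differences of complexes I to V were -0.03, -0.05, 0.08, -0.14 and -0.05. At day 21 complex II differed by 0.14, less than its spread of 0.467 between replicates, and the difference for complex V was -0.12 with TMM scaling but 0.03 when scaled by library size alone. These sums were not tested.

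**Figure D2:**
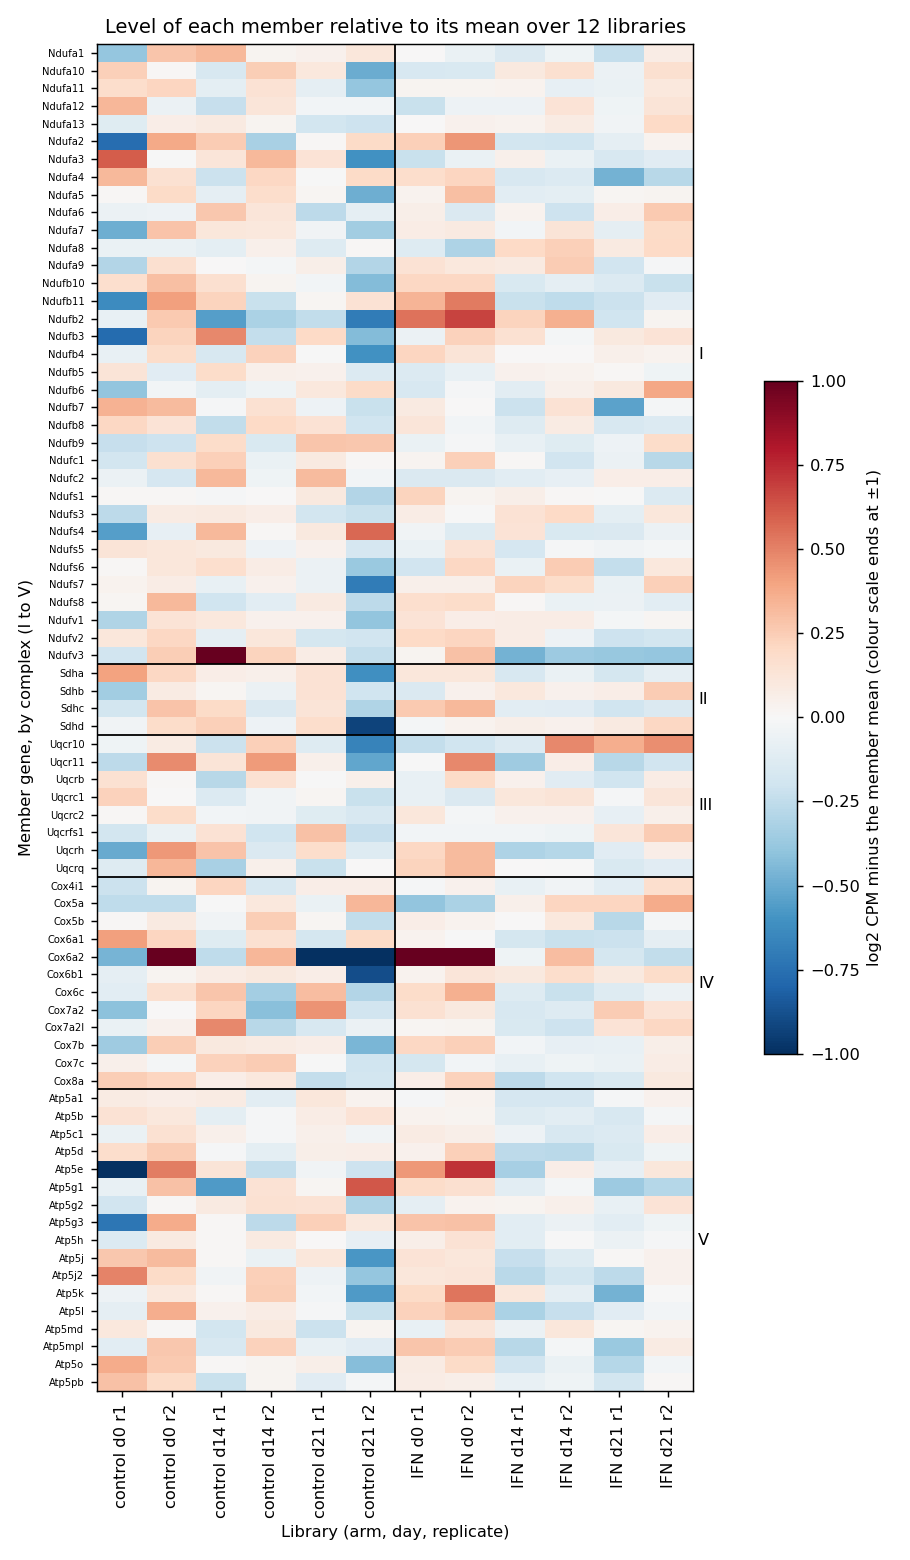
Level of each gene shown in each of the 12 libraries, as log2 CPM minus the gene's mean over the libraries (rows by complex, columns by arm, day and replicate, colours cut at the ends of the scale). Control day 21 replicate 2 has the most low values, and Cox6a2 has the strongest contrast between libraries.

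Over time in the IFN arm, where replicates were close, many subunits shifted by small amounts, and more of them fell than rose. From day 0 to day 14, 38 of the 77 genes passed (49.4%, edgeR quasi-likelihood test on the 6 libraries of the arm, Benjamini-Hochberg adjusted p under 0.05), near the 53.6% of all genes that passed. By direction, 32 genes, 41.6%, fell where 25.5% of all genes did, and 6 genes, 7.79%, rose where 28.1% did. The median of the 77 was -0.12 on the log2 scale against 0.02 for all genes tested. Only 3 of the called genes moved by more than 1.5-fold. When each library of the arm was left out in turn, 24 of the 38 were called in all 6 fits. The other 14 lost the call in at least 1 fit: Atp5b, Atp5c1, Atp5g1, Atp5mpl, Atp5o, Cox7a2, Cox7a2l, Ndufa5, Ndufa12, Ndufs8, Ndufv2, Sdha, Uqcr10 and Uqcr11. Other gene groups moved over the same span. The 12 osteoblast markers summed to 21816 and 22657 CPM at day 0 and to 10953 and 10828 CPM at day 14 (4 rose and 6 fell), and 15 endoplasmic reticulum stress genes went from 4374 and 4455 CPM to 7299 and 7304 CPM (12 rose and 2 fell). The 8 macrophage and osteoclast markers went from 195 and 209 CPM to 529 and 516 CPM, of which Ctsk, the cathepsin of osteoclasts, made up 523 and 512 CPM. Only Ctsk and Cd68 exceeded 1 CPM in any library and Tyrobp was at 0 in all 12. The part of these groups in the subunits' changes was not tested. Less RNA per cell and fewer cells of a kind cannot be told apart in these bulk samples, and all levels are relative to the whole of each library. The calls rest on the spread within the IFN arm: with all 12 libraries in 1 fit none of the 77 passed at day 14, and at day 21 only Cox5a did (adjusted p = 0.0404).

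Measured from day 0, every called ATP synthase subunit was lower. From day 0 to day 14, 12 of its 17 subunits fell and none rose, and to day 21 11 fell and none rose. Of all genes tested, 25.5% fell and 28.1% rose to day 14, and 25% fell and 27.7% rose to day 21. The complex was not tested against these shares. The day 14 calls of Atp5b, Atp5c1, Atp5g1, Atp5mpl and Atp5o were lost in fits that left out 1 library. From day 14 to day 21 the called genes went both ways: Atp5a1 rose by 0.18 ± 0.05, Atp5d by 0.16 and Atp5j by 0.21, and Atp5g1 fell by 0.27. Of these, Atp5a1 alone was called in all 6 fits that left out 1 library. Both subunits of the catalytic F1 head fell by day 14, Atp5b by 0.14 ± 0.05 (log2, SE, adjusted p = 0.0138) and Atp5a1 by 0.17 ± 0.05. The 3 subunits of the central stalk, which turns inside the head, fell as well: Atp5c1 (gamma) by 0.16, Atp5d (delta) by 0.40 and Atp5e (epsilon) by 0.70. Of the peripheral stalk, which holds the head still, Atp5j and Atp5o fell, and Atp5pb (-0.11) and Atp5h (-0.15) did not pass. Among the small membrane subunits Atp5l, Atp5j2 and Atp5mpl fell, by 0.53, 0.33 and 0.40.

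Atp5e had 40.1 and 49 CPM at day 0, 23.6 and 31.1 CPM at day 14, and 28.1 and 32.1 CPM at day 21 in the IFN arm. Both day 0 libraries were above all 4 later ones. In the control arm Atp5e had 14 and 42.4 CPM at day 0, 32.5 and 25.2 CPM at day 14, and 29 and 25.7 CPM at day 21. The control day 0 pair thus enclosed every later control value. The fall in the IFN arm was 1.62-fold to day 14 (log2 change -0.70 ± 0.13 SE, adjusted p = 4.5e-04). The difference between arms in that change was -0.73, with a 95% interval from -1.98 to 0.51 and an adjusted p of 0.686.

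The c ring, the proton-driven rotor, is built from 1 protein that 3 genes encode with different import signals. Atp5g3 fell by 0.36 ± 0.05 by day 14 (adjusted p = 6.03e-07) and by 0.36 by day 21. Atp5g1 fell by 0.22 ± 0.07 by day 14 and by 0.49 ± 0.07 by day 21 (adjusted p = 2.33e-07), from 75.6 and 74.4 CPM at day 0 to 61.8 and 65.7 CPM at day 14 and 51.7 and 54.6 CPM at day 21, with no overlap between days. Atp5g2 did not pass at either day, at 0.08 (95% interval -0.05 to 0.21) and 0.07 (-0.06 to 0.20). Per kilobase Atp5g2 and Atp5g3 were near each other, with medians of 55.3 and 54 RPKM, and Atp5g1 had 13.5 RPKM.

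In complex IV, cytochrome c oxidase, 7 of 12 nuclear subunits fell by day 14 and 1 rose, where 25.5% of all genes fell and 28.1% rose. The complex was not tested against these shares. Cox6a2 encodes the heart and skeletal muscle isoform of subunit 6a, and it gave the steepest fall of all 77 genes. It had 29.6 and 28.7 CPM at day 0 of the IFN arm, 12.6 and 16 CPM at day 14 and 11.4 and 10.9 CPM at day 21. The 3 days did not overlap. The fall was 2.03-fold by day 14 (log2 change -1.02 ± 0.12 SE, adjusted p = 1.95e-08) and 2.6-fold by day 21 (-1.38 ± 0.12, adjusted p = 5.86e-11). In the control arm it had 9.39 and 29.4 CPM at day 0, 10.9 and 16.3 CPM at day 14 and 4.76 and 4.52 CPM at day 21. Day 21 was again the lowest, and both control values there lay below every other library. The control change to day 21 was -2.04 with a 95% interval from -3.29 to -0.79 and did not pass (edgeR adjusted p = 0.181). DESeq2, the fit without a filter and the fit with all 12 libraries each called it. The fit with all 12 libraries shares its spread with the IFN arm, whose replicates lay closer. Of 12 muscle markers, 3 exceeded 1 CPM in any library, Myod1 and Myog peaked at 0.13 and 0.111 CPM, and the list summed to between 5.15 and 13.7 CPM. Their part in the result was not tested.

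The ubiquitous isoform Cox6a1 stood above Cox6a2 per kilobase (medians of 215 and 17.7 RPKM) and fell by 0.20 ± 0.05 by day 14 (adjusted p = 0.00162). Cox5a, a subunit of the matrix side, went the other way. It had 32.4 and 34.1 CPM at day 0 of the IFN arm, 44 and 49.3 CPM at day 14 and 49.4 and 54.9 CPM at day 21. Both day 0 libraries were below all 4 later ones, and the rise was 1.41-fold by day 14 (0.50 ± 0.08, adjusted p = 6.67e-06) and 1.57-fold by day 21 (0.66 ± 0.08, adjusted p = 6.2e-08). In the control arm Cox5a had 35.6 and 35.7 CPM at day 0, 42.4 and 45.8 CPM at day 14 and 40.7 and 53.6 CPM at day 21. The later control libraries were also all above the day 0 pair, and the control change to day 21 was 0.42 (95% interval -0.20 to 1.05, adjusted p = 0.517). The change did not pass as different between arms, at 0.25 (-0.30 to 0.79) to day 21.

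Cox4i1, the common isoform of a subunit through which ATP regulates the enzyme, did not pass at either day, at -0.06 (-0.20 to 0.07) and 0.03 (-0.11 to 0.16). Cox7a2l, which links complexes III and IV into supercomplexes, fell by 0.19 by day 14 and then rose by 0.35 ± 0.05 from day 14 to day 21 (adjusted p = 4.52e-06), ending 0.16 above day 0. Cox7a2 fell by 0.26 and then rose by 0.34. The falls of Cox7a2l and Cox7a2 to day 14 lost their calls in fits that left out 1 library. Cox8a fell by 0.37 ± 0.07 by day 14 and did not pass at day 21 (-0.17). The alternative isoforms were scarce: Cox4i2, known from lung and hypoxic cells, reached at most 0.357 CPM and Cox7a1, the muscle isoform, at most 0.604 CPM. Cox4i2 had 0 counts in each day 0 library, then 11 and 11 at day 14 and 7 and 4 at day 21 with IFN. Its rise in the IFN arm was called to both days (edgeR adjusted p = 0.00252 and 0.0191), on very few counts. In the control arm it had 0 and 0 counts at day 14 and 6 and 5 at day 21. IFN against control did not pass at day 14 (edgeR adjusted p = 0.12).

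In complex III, ubiquinol-cytochrome c reductase, 2 of 8 subunits rose by day 14 and 3 fell, where 28.1% of all genes rose and 25.5% fell. The core subunit Uqcrc1 rose by 0.24 ± 0.06 by day 14 (adjusted p = 4.68e-04), and Uqcr10, a small subunit near cytochrome c1, rose by 0.43 ± 0.17 by day 14 (adjusted p = 0.0303) and by 0.64 ± 0.16 by day 21 (adjusted p = 0.00168). Uqcr10 had 8.67 and 8.91 CPM at day 0 of the IFN arm, 9.32 and 14.3 CPM at day 14 and 13.2 and 14.2 CPM at day 21. Its day 14 pair was spread by 1.5-fold. The change to day 14 lost its call without either day 0 library and without IFN day 14 replicate 2, where it was 0.09 (adjusted p = 0.724). The call to day 21 held in all 6 fits that left out 1 library of the arm. In the control arm Uqcr10 had 9.91 and 10.8 CPM at day 0, 8.82 and 12 CPM at day 14 and 9.36 and 6.44 CPM at day 21, so both day 21 values lay below both of day 0. Uqcrh, the hinge subunit that holds cytochrome c1, fell by 0.55 ± 0.08 by day 14 (adjusted p = 1.96e-06), and Uqcrq and Uqcr11 fell at both days. Uqcrfs1, the Rieske iron-sulfur protein, stood at 0.00 by day 14 and rose by 0.22 by day 21.

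In complex II the flavoprotein Sdha fell by 0.22 ± 0.05 by day 14 and the membrane anchor Sdhc by 0.39 ± 0.06 (adjusted p = 6.48e-07). Sdhc had 113 and 118 CPM at day 0 of the IFN arm, 87.6 and 87 CPM at day 14 and 82.1 and 84.9 CPM at day 21. The iron-sulfur subunit Sdhb rose by 0.22 ± 0.07 by day 21 (adjusted p = 0.0161), but stood at 0.11 and was not called without IFN day 0 replicate 1 or IFN day 21 replicate 2. The other anchor Sdhd did not pass at either day.

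In complex I, NADH dehydrogenase, 11 of 36 nuclear subunits passed by day 14 (30.6%, next to 53.6% of all genes), 3 higher and 8 lower, and its median was -0.04. Its share was not tested against those of the other complexes. Of the 7 core subunits, which carry the flavin and iron-sulfur clusters, Ndufv2 and Ndufs8 fell, by 0.18 and 0.19. Ndufs1 did not pass, at -0.08 (-0.26 to 0.10) and -0.19 (-0.37 to -0.01). Among the 29 accessory subunits Ndufb11, a membrane arm subunit encoded on the X chromosome, fell most, from 52.6 and 59.6 CPM at day 0 of the IFN arm to 35.5 and 34.9 CPM at day 14 and 35.8 and 38.4 CPM at day 21. The fall was 1.58-fold to day 14 (-0.66 ± 0.08, adjusted p = 4.28e-08). In the control arm it had 26.9 and 55.3 CPM at day 0 and 35.6 to 48.4 CPM later, so the control day 0 pair again enclosed the later values. Ndufa8, one of the subunits with paired cysteines that face the intermembrane space, rose by 0.45 ± 0.08 (adjusted p = 1.58e-05), from 41.7 and 36.9 CPM to 52.4 and 53.8 CPM, and Ndufa10 rose by 0.29. Ndufa12 was 0.19 higher (adjusted p = 0.0494), but 0.10 and not called without IFN day 0 replicate 1 or IFN day 14 replicate 2. Ndufa4, grouped here by its symbol but placed by structural work with complex IV, fell by 0.33 by day 14 and by 0.56 ± 0.07 by day 21 (adjusted p = 9.76e-08). Its hypoxia-linked relative Ndufa4l2 stayed between 0.0854 and 1.7 CPM.

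**Figure D3:**
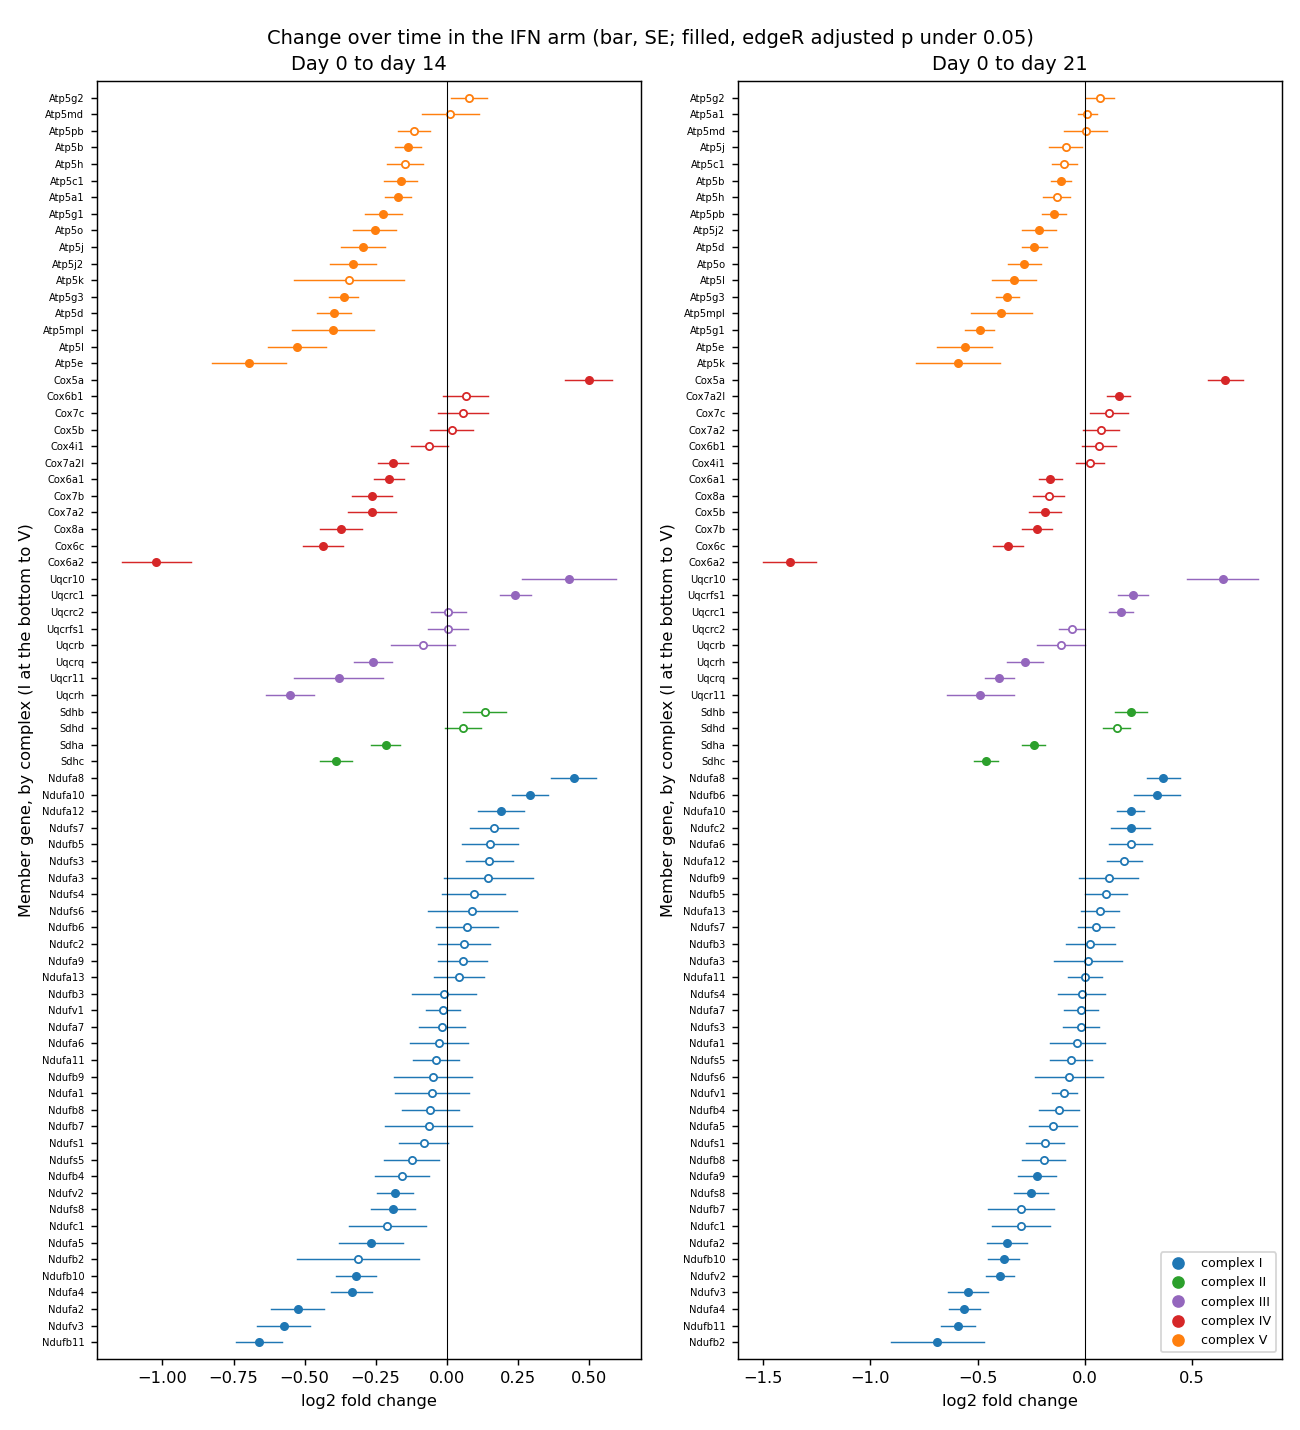
Log2 fold change of each gene shown in the IFN arm from day 0 to day 14 (left) and to day 21 (right), ordered within each complex (point, estimate, bar, SE, filled, edgeR adjusted p under 0.05). Complex V has no filled point above 0, Cox6a2 lies lowest in both panels, and Cox5a highest in both.

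By day 21, 41 of the 77 genes passed against day 0 (53.2%, next to 52.7% of all genes), 10 higher (13% against 27.7%) and 31 lower (40.3% against 25%). New to the higher genes by rank were Ndufb6 at 0.34 and Sdhb and Uqcrfs1 at 0.22 each. New to the lowest genes were Ndufb2 at -0.69, Atp5k, a small membrane subunit of ATP synthase, at -0.59, and Ndufa4 at -0.56. Ndufa4 stood between -0.67 and -0.47 when each library of the arm was left out in turn. Between day 14 and day 21, 14 genes passed (18.2%, below the 29.5% of all genes), 7 in each direction. Of the 41 called to day 21, 18 were called in all 6 fits that left out 1 library, and Ndufb2, Ndufb6, Atp5k, Sdhb and Uqcrfs1 were not among them. Between days 14 and 21, 3 of the 14 were, Atp5a1, Cox7a2 and Cox7a2l. Without IFN day 0 replicate 2, 25 genes passed to day 21, and without IFN day 14 replicate 1 or 2, 7 and 5 passed between days 14 and 21.

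The promoters of the strongest movers with a RefSeq window are shown because nuclear respiratory genes are known to share regulators. NRF1 and GABP are known activators of many respiratory genes, YY1 acts at some of them, and the hypoxia response element is bound by HIF. Windows of 250 bases before the RefSeq start were found under their symbols for 64 of the 77 genes (build GRCm38.p6). They are given 5′ to 3′ on the strand of the gene, in lower case, with matches to the NRF1 (GCGCATGCG), GABP (CCGGAAG) and YY1 (AAGATGGC) letters on either strand in capitals. Cox5a (chr9:57520982-57521231, plus strand) and Ndufa8 (chr2:36049339-36049588, minus strand) rose, and Atp5e (chr2:174464102-174464351, minus strand) and Ndufb11 (chrX:20617620-20617869, minus strand) fell.
Cox5a: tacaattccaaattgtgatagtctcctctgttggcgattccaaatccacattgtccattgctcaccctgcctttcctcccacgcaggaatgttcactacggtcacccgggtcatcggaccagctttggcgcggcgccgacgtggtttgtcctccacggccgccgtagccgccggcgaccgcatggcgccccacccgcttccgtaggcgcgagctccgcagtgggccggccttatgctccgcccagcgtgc
Ndufa8: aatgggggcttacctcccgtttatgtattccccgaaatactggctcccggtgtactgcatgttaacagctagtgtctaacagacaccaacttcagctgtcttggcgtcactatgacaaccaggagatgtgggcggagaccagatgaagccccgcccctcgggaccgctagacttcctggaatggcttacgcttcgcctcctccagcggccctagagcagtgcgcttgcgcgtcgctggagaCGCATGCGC
Atp5e: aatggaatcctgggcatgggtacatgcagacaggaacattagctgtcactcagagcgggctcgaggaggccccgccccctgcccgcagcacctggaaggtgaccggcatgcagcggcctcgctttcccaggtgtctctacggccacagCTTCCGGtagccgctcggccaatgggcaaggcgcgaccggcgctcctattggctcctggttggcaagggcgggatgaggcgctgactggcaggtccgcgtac
Ndufb11: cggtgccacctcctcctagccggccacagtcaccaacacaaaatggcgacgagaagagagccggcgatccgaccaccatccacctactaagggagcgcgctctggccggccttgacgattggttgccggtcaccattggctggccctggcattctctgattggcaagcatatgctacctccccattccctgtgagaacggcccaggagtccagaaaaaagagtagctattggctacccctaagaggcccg
Ndufa8 held an NRF1 match that ends next to the start, Atp5e held a GABP match, and Cox5a and Ndufb11 held none of the 3.

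Matches were counted by gene, where any window of the gene could hold the match. The NRF1 letters occurred in 6 of the 64 genes (9.38%), which were Atp5g2, Atp5k, Atp5l, Cox6a1, Ndufa11 and Ndufa8. The share was 1.64% of all 27025 genes with a window of the same length. The GABP letters occurred in 12 of the 64 genes (18.8% against 7.83%) and the YY1 letters in 1 (1.56% against 1.83%). The short hypoxia letters ACGTG or GCGTG occurred in 34 (53.1% against 41.5%). The genes were also split by the call from day 0 to day 14 in the IFN arm. GABP matches were in 0 of 6 genes that rose, 6 of 25 genes that fell and 6 of 33 of the others. The hypoxia letters were in 1 of 6, 15 of 25 and 18 of 33. A match is a run of letters and was not tested as a binding site.

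In the control arm none of the 77 genes passed over any span, with edgeR on its 6 libraries, next to 0.211% of all genes to day 14, 0.304% to day 21 and 0% between days 14 and 21. At an unadjusted p under 0.05 there were 0, 1 and 2 of the 77, with no share of all genes given at that limit. DESeq2 called 0, 1 and 0, and limma with voom on all 12 libraries called 0 in each span. The median standard error of a log2 change was 0.292 to day 14, where it was 0.0815 in the IFN arm, so changes of the size seen with IFN were not detectable there. Of the 32 genes that fell in the IFN arm by day 14, 23 had a negative control change (71.9%, against 76.1% of all genes that fell in the IFN arm), and of the 31 that fell by day 21, 25 did (80.6% against 80.8%). The 32 genes had a median of -0.33 in the IFN arm and -0.09 in the control arm. For the 6 genes that rose by day 14 the control sign matched in 3.

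**Figure D4:**
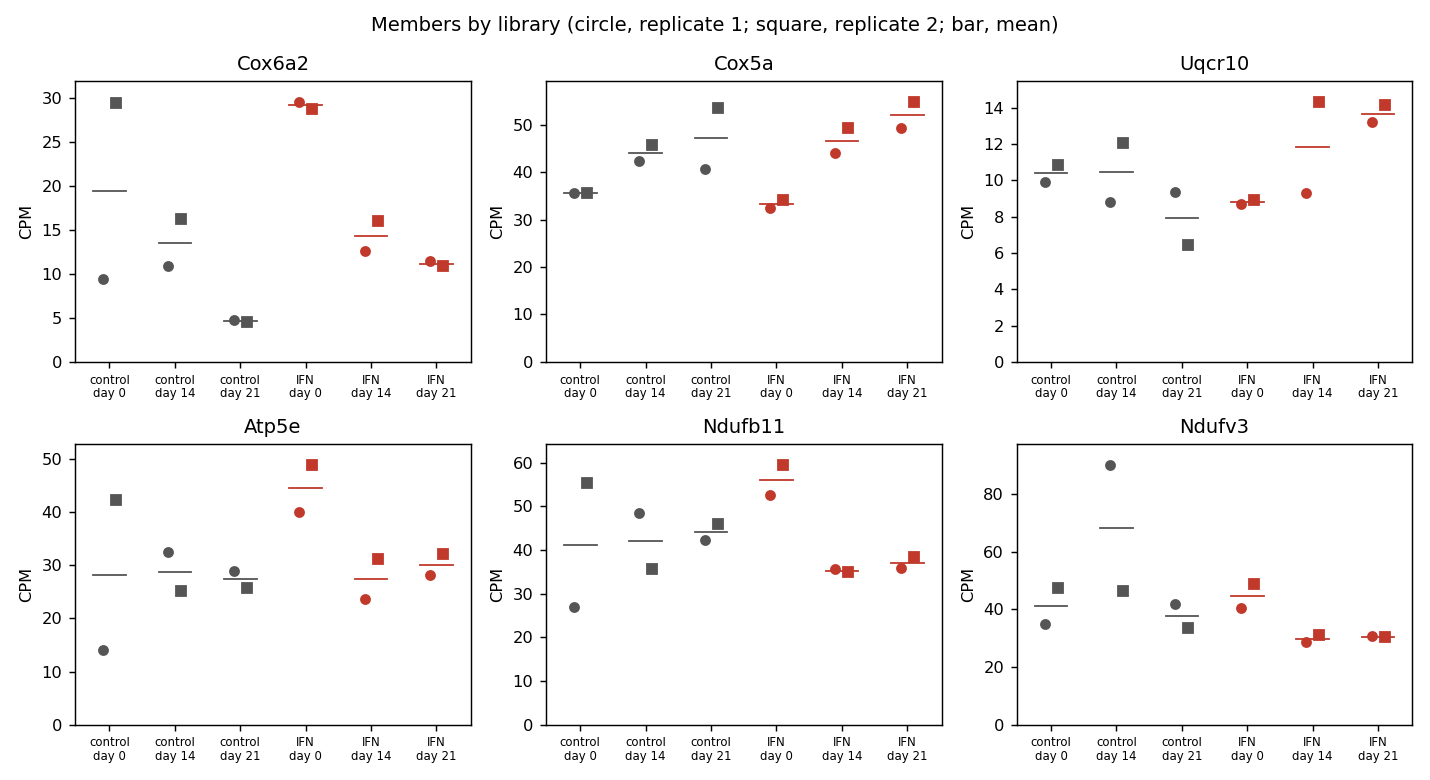
CPM in each library of Cox6a2, Cox5a, Uqcr10, Atp5e, Ndufb11 and Ndufv3, from 0, by arm and day (circle, replicate 1, square, replicate 2, bar, mean of both). Cox6a2 is lowest at day 21 in both arms, Cox5a is lowest at day 0 in both, and Ndufv3 has 1 high library, control day 14 replicate 1.

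Set against control cells of the same day, IFN did not move any of the 77 genes past the threshold (edgeR, all 12 libraries). The count was 0 at day 0, 0 at day 14 and 0 at day 21, where 0.00578%, 2.29% and 0.995% of all genes passed. At an unadjusted p under 0.05 there were 0, 2 and 4 genes of the 77, with no share of all genes given at that limit. DESeq2 called 0, 1 and 0, and limma with voom called 0, 1 and 0. The medians were 0.04, -0.08 and 0.04 on the log2 scale. At day 14 the 95% interval lay within a 2-fold change either way for 73 of the 77 genes, and at day 21 for 70, so for these genes a larger difference lay outside the interval.

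The nearest to a call at day 14 was Ndufv3, an accessory subunit of the flavoprotein arm of complex I on chr17:31520115-31531331, plus strand. It had 90.2 and 46.4 CPM in the control libraries and 28.6 and 30.9 CPM in the IFN libraries. Both IFN libraries were lower, but the control pair differed by more than 1.5-fold. The log2 difference was -1.20 ± 0.29 (SE), with a 95% interval from -1.83 to -0.56 and an adjusted p of 0.0636. DESeq2 (adjusted p = 0.00332), the fit without a filter and limma with voom called it. Without control day 14 replicate 1, the library with high hypoxia genes, the difference was -0.64 (adjusted p = 0.455), with the lone control library taken to vary like the other groups. It was called when control day 14 replicate 2 or either control day 21 library was left out. The part of the hypoxia genes in this value was not tested. Within the IFN arm Ndufv3 fell by 0.57 ± 0.09 from day 0 to day 14 (adjusted p = 4.32e-06).

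By complex, the outermost differences at day 14 were 0.72 for Ndufb2, -0.17 for Sdha and 0.09 for Sdhb, -0.41 for Uqcr11 and 0.21 for Uqcrc1, -0.33 for Cox7a2l and 0.08 for Cox5a, and -0.33 for Atp5j2 and 0.11 for Atp5g1. Ndufb2 had 2.5 and 2.95 CPM in the control libraries and 4.28 and 4.71 CPM in the IFN libraries, and its interval ran from 0.05 to 1.39 (adjusted p = 0.316). Of the fixed reference genes, Ndufs1 differed by 0.04 (-0.35 to 0.42), Atp5b by -0.06 (-0.42 to 0.29) and Cox4i1 by -0.09 (-0.48 to 0.29).

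At day 21 the 2 highest differences were Cox6a2 and Uqcr10 and the 2 lowest Atp5g1 and Ndufa4. Cox6a2 was 1.27 ± 0.43 higher with IFN (95% interval 0.31 to 2.23, adjusted p = 0.257), since its control libraries had fallen to 4.76 and 4.52 CPM and the IFN libraries stood at 11.4 and 10.9 CPM. Uqcr10 was 0.79 higher (0.16 to 1.42, adjusted p = 0.272), at 13.2 and 14.2 CPM against 9.36 and 6.44 CPM. Atp5g1 was -0.67 (-1.24 to -0.11, adjusted p = 0.293), and its 2 control libraries differed widely, at 67.3 and 102 CPM. Ndufa4 was -0.47 (-0.86 to -0.08, adjusted p = 0.293). In all 4 genes control day 21 replicate 2 was the control library farther from the IFN values. Without that library no gene of the 77 passed, and Uqcr10 stood at 0.54, Atp5g1 at -0.35 and Ndufa4 at -0.38. Without control day 21 replicate 1 instead, Uqcr10 stood at 1.10 and Atp5g1 at -0.93. Cox6a2 was called alone when either control day 0 library was left out.

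**Figure D5:**
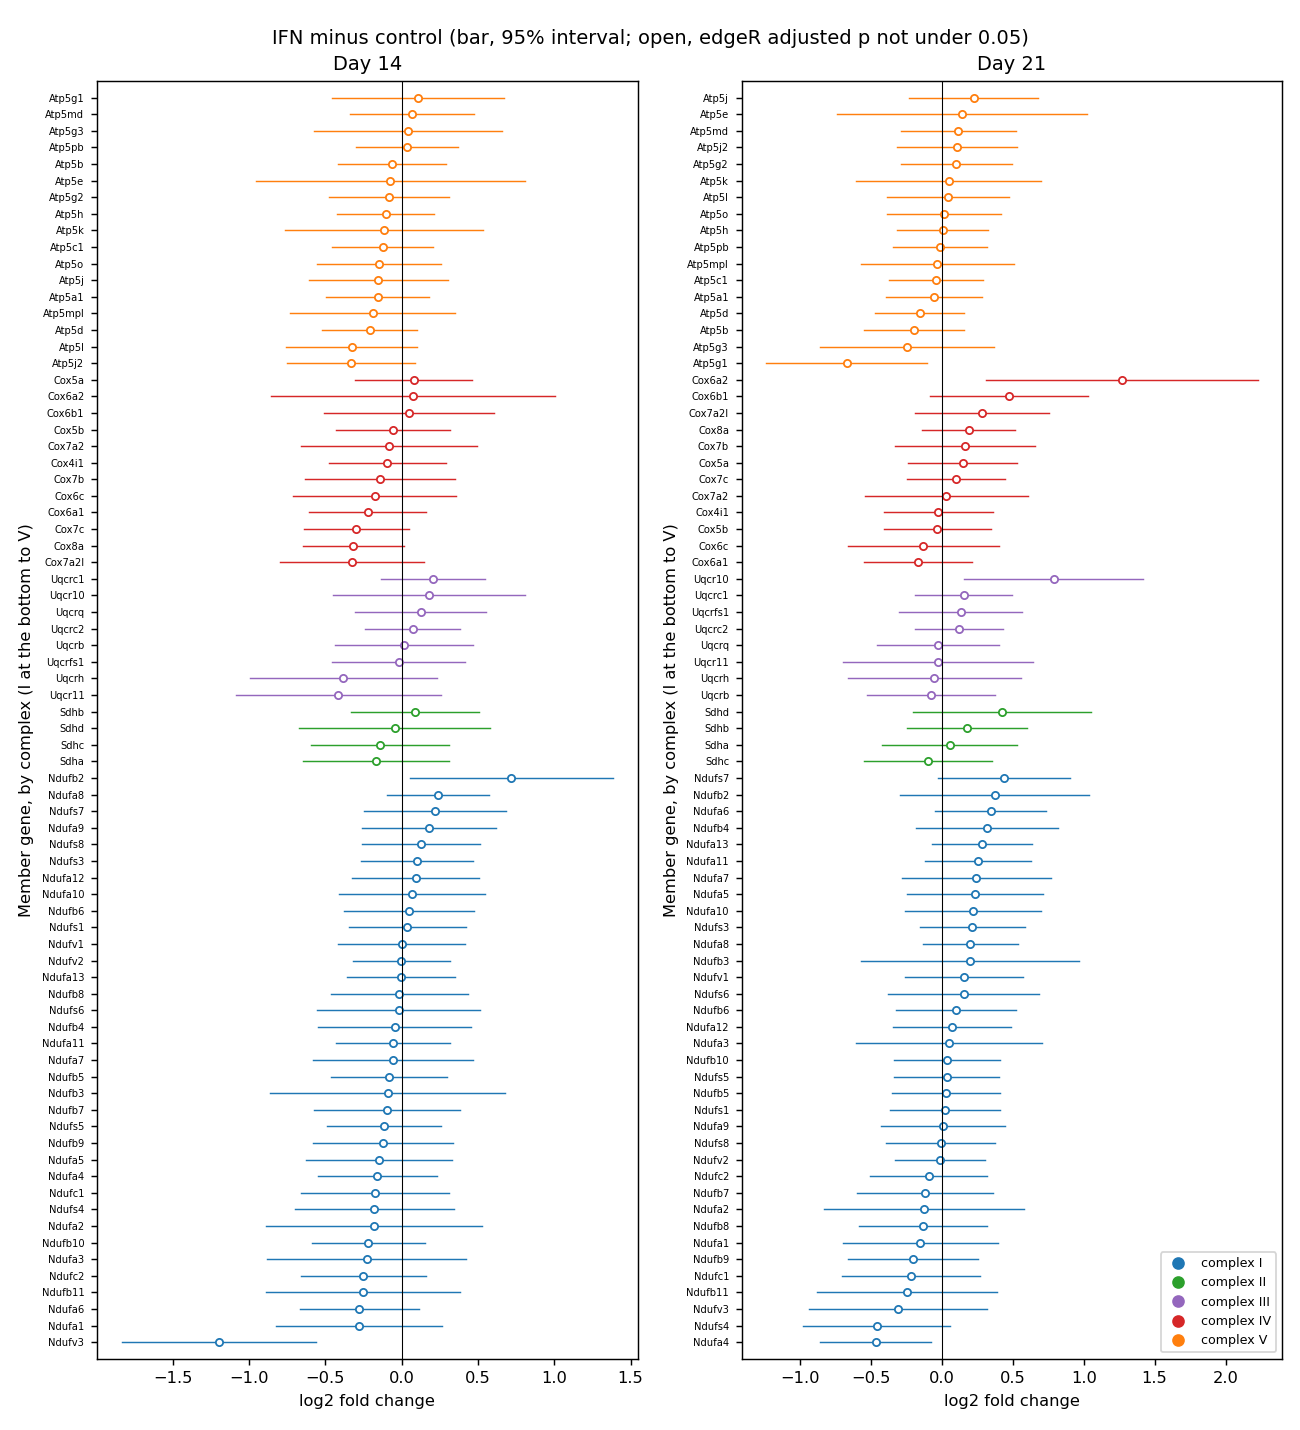
Log2 difference of IFN minus control for each gene shown at day 14 (left) and day 21 (right), ordered within each complex, with 95% intervals from the edgeR fit (all points open, no adjusted p under 0.05). Ndufv3 lies lowest at day 14, and Cox6a2 highest at day 21.

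The change over time did not pass as different between arms for any gene, to day 14 or to day 21 (edgeR, next to 0.596% and 0.0925% of all genes), with 1 gene at an unadjusted p under 0.05 in each case and 0 called by DESeq2 or by limma with voom. In 2 of the 77 genes, Ndufb9 and Uqcrc1, the day 0 and day 14 libraries lay apart in opposite directions in the arms, next to 5.87% of all genes, and to day 21 in 2, Ndufa6 and Uqcr10, next to 3.52%. For Ndufv3 the difference in change to day 14 was -1.32 (-2.21 to -0.43, adjusted p = 0.25), and for Uqcr10 to day 21 it was 1.03 (0.14 to 1.92, adjusted p = 0.568). When each of the 12 libraries was left out in turn, the Ndufv3 value ran from -1.72 to -0.76. The Uqcr10 value ran from 0.78 to 1.34.

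At day 0 the outermost differences were 0.66 for Atp5e and 0.59 for Cox6a2 and -0.47 for Ndufa3 and -0.30 for Cox6a1, all with an adjusted p of 0.997. The first 2 rest on control day 0 replicate 1, where Atp5e was at 14 CPM and Cox6a2 at 9.39 CPM. Without that library Atp5e differed by 0.08 and Cox6a2 by -0.01.

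Among assembly factors, which build the complexes without staying in them, more rose than fell in the IFN arm for complexes I and IV. From day 0 to day 14, 28.1% of all genes rose and 25.5% fell, and these lists were not tested against that. Of 18 complex IV assembly factors tested 8 rose and 1 fell, with Coa5 at 0.48 ± 0.05 (adjusted p = 2.24e-09) and Cox18, which inserts a core subunit into the membrane, at 0.88 ± 0.10 (adjusted p = 5.62e-09). For complex I 6 of 15 rose and 2 fell, with Foxred1 at 0.80 ± 0.10 and Ndufaf6 at 0.91 ± 0.16. Complex III had 2 higher and 1 lower of 6, complex II 1 and 1 of 4 and complex V 1 and 1 of 5. Against control at day 14, Cox18 was the only assembly factor to pass, 0.98 ± 0.19 higher with IFN (adjusted p = 0.0248). It was called in 5 of the 12 fits that left out 1 library, and without control day 14 replicate 1 it was 0.81 (adjusted p = 0.19).

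Of the carriers and subunits outside the symbol rule, cytochrome c (Cycs) rose by 0.28, cytochrome c1 (Cyc1) by 0.17 and the acyl carrier subunit Ndufab1 by 0.34 by day 14, while Atpif1, the inhibitor of ATP synthase, fell by 0.72 ± 0.12 (adjusted p = 1.15e-05). The calls of Cyc1 and Ndufab1 were lost in 3 and 2 of the 6 fits that left out 1 library. Among 16 regulators of mitochondrial biogenesis tested, 4 rose and 3 fell. Pprc1 rose by 0.58 and Tfam, the packaging and transcription factor of mitochondrial DNA, by 0.23 (called in 4 of the 6 fits that left out 1 library), while Gabpa fell by 0.54. Ppargc1a, the coactivator PGC-1 alpha, did not pass at day 14 (0.57) and rose by 1.27 ± 0.29 by day 21 (adjusted p = 4.77e-04). Among 17 citric acid cycle genes 3 rose and 5 fell by day 14, and Idh2, the NADP-linked isocitrate dehydrogenase, fell by 0.90 ± 0.06 (adjusted p = 3.24e-14). Idh2 was also lower with IFN than in control at day 14, at -1.34 ± 0.19 (adjusted p = 0.00418). Of 30 glycolysis and hypoxia genes, 18 rose and 7 fell in the IFN arm by day 14 (28.1% and 25.5% of all genes), and at that day 2, Egln3 and Pfkfb3, were lower with IFN than in control. Control day 14 replicate 1, with Bnip3 at 626 CPM where all other libraries were lower, is 1 of the 2 control libraries behind both. Without it neither was called, with Egln3 at -1.67 in place of -3.32 and Pfkfb3 at -1.34 in place of -2.11.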

How the data were processed

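Raw counts per gene symbol were deposited by the authors as whole-number counts for the 12 libraries. Per the submitters' processing notes, HISAT2, SAMtools, featureCounts and the mm10 build were used, with no versions. The annotation, the strand setting and the treatment of reads with several matches are not given in the sources used here, so reads of overlapping antisense genes cannot be told apart. Poly(A) RNA was purified on beads, per the labels' protocols.

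Counts were tested with edgeR 4.0.16 in R 4.3.3 (filterByExpr, TMM scaling, robust quasi-likelihood fit, Benjamini-Hochberg adjustment over all genes tested, threshold 0.05). IFN against control and the difference of changes between arms used all 12 libraries (17289 genes tested). Changes over time used the 6 libraries of 1 arm (16103 genes in the control arm, 16259 in the IFN arm), because earlier results had shown that control replicates spread more. The members, lists, named genes and this choice were made with earlier results of these data known. The edgeR fit was tested on simulated counts for IFN against control at day 14 and for day 0 to day 14 in each arm. Each simulated gene had the same spread in all libraries, so the unequal spread of the 2 arms was not covered. CPM values are counts over TMM-scaled library sizes, and ± is the standard error of a log2 fold change. With 2 libraries a group no single-gene permutation test could pass, and intervals are 95%.

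Named genes were a fixed set of isoforms and 1 anchor per complex, up to 6 called genes at each end of a comparison (with none called, 2 at each end), the outermost genes of each complex at day 14, and up to 3 called genes of each other list by adjusted p beside Ppargc1a, Nrf1, Tfam, Cycs, Cyc1, Bnip3, Pdk1, Egln3 and Hspa5. The other genes named were chosen after their values were seen. Alternatives were RLE or library size scaling, DESeq2 1.42.0, limma 3.58.1 with voom and library weights, 2 other filters, a replicate block, other sets of libraries in the fit and leaving out each library. Promoter windows came from RefSeq, and gene positions and exon lengths from GENCODE M21. Values of 1 gene among the 77 are not reported here and not drawn in the plots by gene, though counts and sums include it.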

Additional observations from a re-analysis of the deposited data

Results flagged for a closer look

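For 4 genes every replicate comparison moved one way in the IFN arm and the opposite way in the control arm, 2 over each span, and in none did the difference between arms pass edgeR's quasi-likelihood test. Of all genes tested, 5.87% showed such opposite moves to day 14 and 3.52% to day 21. From day 0 to day 14 the difference in log2 change, IFN minus control, was -0.302 for Ndufb9 (-0.05 in the IFN arm and 0.24 in the control arm, adjusted p = 0.758) and 0.436 for Uqcrc1 (0.24 and -0.21, adjusted p = 0.494). From day 0 to day 21 it was 0.325 for Ndufa6 (0.21 and -0.10, adjusted p = 0.741) and 1.03 for Uqcr10 (0.64 and -0.37, adjusted p = 0.568).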

How the results depend on the processing

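Every library held at least 29772425 counts and each of the 77 genes at least 1568 over the 12 libraries, and there were 2 libraries in each group. The number of the 77 genes called for IFN against control at day 14 went from 0 to 1 (Ndufv3, lower) with DESeq2, without a filter, with limma and voom, and without both control libraries that stood apart at days 0 and 21 (replicates 1 and 2). At day 21 it went from 0 to 1 without a filter and without that pair. From day 0 to day 21 in the control arm it went from 0 to 1 (Cox6a2) with DESeq2, without a filter and with all 12 libraries in the fit, and for the change to day 14 in IFN minus control from 0 to 1 without a filter. In the IFN arm all 12 libraries in the fit gave 0 calls to day 14, 1 to day 21 and 0 from day 14 to day 21, against 38, 41 and 14, and limma with voom gave 31, 27 and 1. In these fits, as in the fit with all 12 libraries that called Cox6a2, the spread is shared between the arms by construction.

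Leaving out 1 library at a time gave 0 to 1 calls at day 14 (1 without control day 14 replicate 2 or either control library of day 21) and 0 to 8 at day 21 (8 without control day 21 replicate 1) for IFN against control, 29 to 42, 25 to 38 and 5 to 16 in the IFN arm, 0 to 2 (2 without control day 0 replicate 2) and 0 to 7 (7 without control day 21 replicate 1) for the difference between arms, and 0 in the other comparisons. Among single genes it turned the sign of Cox6a2 at day 0 (-0.006395 to 1.635), and at day 14 of Cox7a2l (-0.6538 to 0.09846), Cox5a (-0.02209 to 0.1387) and Atp5g1 (-0.2028 to 0.5069). It also turned Cox6a2 in the control arm to day 14 (-1.113 to 0.5183, and -1.119 without the pair named above) and in the difference between arms to day 21 (-0.3594 to 1.281). Without that pair Cox6a2 at day 0 was -0.01294. None of these values was called.

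Scaling by library size alone shifted the median of all genes by 0.15 for IFN against control at day 21, by -0.18 from day 0 to day 21 in the control arm and by -0.15 from day 14 to day 21. With it the log2 differences of summed levels were -0.03186 for complex I, 0.08267 for complex III and -0.04926 for complex V at day 14, and 0.2322 for complex IV and 0.03188 for complex V at day 21. Without genes over 10000 CPM in the total they were -0.05042 for complex I and -0.06783 for complex V at day 14, and 0.2118 for complex IV and 0.01146 for complex V at day 21. Complex V at day 21 thus turned from negative to positive under both.

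Replicate numbers did not pair the libraries: correlations of replicate differences ran from -0.119 to 0.122. A replicate block gave 0 calls for IFN against control, in the control arm and for the difference between arms, and 39, 45 and 16 in the IFN arm. With crossed numbers at day 21, chosen after seeing the data, the block gave 0 calls for IFN against control.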
